A study of Mus musculus with 2 samples.

Results

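The genes described here encode the proteins of the mitochondrial ribosome, and were read as long transcripts in mouse gastrocnemius, a calf muscle. They were all protein-coding genes of the annotation whose name starts with Mrpl or Mrps and a number, and each gene's reads were summed over its transcript models. The rule found 78 genes on 17 chromosomes, out of 15324 annotated mouse genes with a read in either library. Of these, 49 belong by name to the large subunit (Mrpl) and 29 to the small subunit (Mrps). All 78 had reads in both libraries, from 27 to 2787 reads in replicate 2 and from 4 to 482 reads in replicate 1.

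The mitochondrial ribosome sits in the mitochondrial matrix and translates the few messenger RNAs of the mitochondrial genome, all of which encode subunits of the respiratory chain and the ATP synthase. Its rRNAs come from mitochondrial DNA, whereas every one of its proteins is encoded in the nucleus, translated in the cytosol and imported. Some of these proteins descend from bacterial ribosomal proteins and others occur only in mitochondria. Skeletal muscle, and its oxidative fibres above all, is rich in mitochondria.

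Both libraries came from female B6CASTF1/J mice with no treatment named, the first-generation hybrid of a C57BL/6J and a CAST/EiJ parent, aged 36 days, with 2 µg of RNA per library and added Lexogen and Ambion spike-ins. The labels number the females and the tissue samples differently for replicate 2 and replicate 1 although the donor entry is the same, and each library was treated as its own animal. There is 1 group, and no conditions can be compared. Levels are read counts scaled to a library total of 1000000 reads in annotated mouse genes (CPM). Those reads numbered 1602272 in replicate 2 and 797105 in replicate 1, which makes a single read 0.624 CPM in replicate 2 and 1.25 in replicate 1. The skeletal-muscle markers Acta1, Ckm, Mylpf and Tnnc2 together held 195103 CPM in replicate 2 and 228785 CPM in replicate 1. Acta1, Ckm and Mylpf were lower in replicate 2, whereas Tnnc2 was higher, at 47756 CPM against 42022 CPM in replicate 1. Myh7, Tnni1, Tnnc1 and Myl2, 4 markers of slow fibres, summed to 2548 CPM in replicate 2 and 8.78 CPM in replicate 1, where Myh7 and Myl2 had 0 reads, which allows up to 3.76 CPM each.

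The members together took 16412 reads in replicate 2 and 4717 reads in replicate 1. That was 1.02% of all such reads in replicate 2 (95% interval 1.01% to 1.04%) and 0.592% in replicate 1 (0.575% to 0.609%), a mean of 0.808% ± 0.306 (SD, n = 2). The intervals are exact Clopper-Pearson intervals and cover counting error only, since no molecular identifiers are given. A member's mean level ranged from 11.6 CPM (Mrpl47) to 1172 CPM (Mrpl30), with a median of 65.1 CPM. The other 7534 protein-coding genes with at least 10 reads had a median of 17.8 CPM. Of the 78 members, 22 lay above 100 CPM, 50 between 30 and 100 CPM and 6 below 30 CPM. The 49 Mrpl genes had a median of 63.8 CPM and the 29 Mrps genes one of 71.0 CPM.

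A long read was taken to stand for 1 RNA molecule, which was not tested, so CPM was not divided by transcript length. The highest member was Mrpl30, which encodes a large-subunit protein with a bacterial counterpart, at 1739 CPM in replicate 2 and 605 CPM in replicate 1 (mean 1172 ± 802 CPM, SD, n = 2). It alone gave 17.0% of all member reads in replicate 2 and 10.2% in replicate 1. Mrpl33, a small protein of the large subunit also kept from bacteria, stood at 522 CPM (replicate 2) and 326 CPM (replicate 1). Mrpl42, a large-subunit protein found only in mitochondria, had 522 CPM in replicate 2 and 322 CPM in replicate 1. Those 2 genes were level with each other, and both lay below Mrpl30 in either library.

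Among the Mrps genes Mrps21, the counterpart of bacterial S21, led with 429 CPM in replicate 2 and 279 CPM in replicate 1. Mrps36, whose product is now known as a part of the 2-oxoglutarate dehydrogenase complex rather than of the ribosome, followed with 311 CPM in replicate 2 and 179 CPM in replicate 1. Mrps14, the counterpart of bacterial S14, had 263 CPM in replicate 2 and 142 CPM in replicate 1. Mrps24, that of bacterial S3, had 218 CPM in replicate 2 and 154 CPM in replicate 1. All 4 were higher in replicate 2, as were the members that complete the 10 highest.

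Those were Mrpl24 with 263 CPM in replicate 2 and 94.1 CPM in replicate 1, Mrpl23 with 205 CPM and 142 CPM in the same order, and Mrpl51, found only in mitochondria, with 229 CPM in replicate 2 and 95.3 CPM in replicate 1. Mrpl24 and Mrpl23 are counterparts of bacterial proteins near the exit of the ribosome's peptide tunnel. Per kilobase of the leading annotated transcript, 6 of these 10 remained among the 10 highest. Mrpl30 still came first, at 1209.5 CPM per kilobase, with the reads of its short single-exon model, described below, counted in. Mrps21 at 725 and Mrpl42 at 639 CPM per kilobase followed. Mrpl52, Mrpl53, Mrps17 and Mrps18c, which have short transcripts, entered the 10. Mrpl33 left the 10 at 155 CPM per kilobase, because its leading annotated transcript is the retained-intron form Mrpl33-203 of 2741 nt. By the 465 nt of the model that held most of its reads, a length chosen after the values were seen, it would stand second with 912 CPM per kilobase, and 7 of the 10 would remain.

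The lowest member was Mrpl47, a counterpart of bacterial L29, with 18.1 CPM (29 reads) in replicate 2 and 5.02 CPM (4 reads) in replicate 1. Mrpl19, the counterpart of L19, had 27 reads in replicate 2 and 8 reads in replicate 1 (mean 13.4 ± 4.82 CPM, SD, n = 2). Mrps2, that of S2, had 18.1 CPM in replicate 2 and 20.1 CPM in replicate 1. Mrpl49, found only in mitochondria, had 48 reads in replicate 2 and 16 in replicate 1. Mrpl10 was next with a mean of 29.4 CPM, and it is the counterpart of the bacterial protein that carries the stalk where translation factors bind. Of the 77 neighbouring pairs in the order of mean CPM, only Mrpl30 above Mrpl33 and Mrps2 above Mrpl19 had ranges over the 2 libraries that did not overlap. Across the 78 genes the libraries' log2 CPM were correlated with a Pearson r of 0.935 and a Spearman rho of 0.914, a description over genes that share the same 2 libraries.

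**Figure D1:**
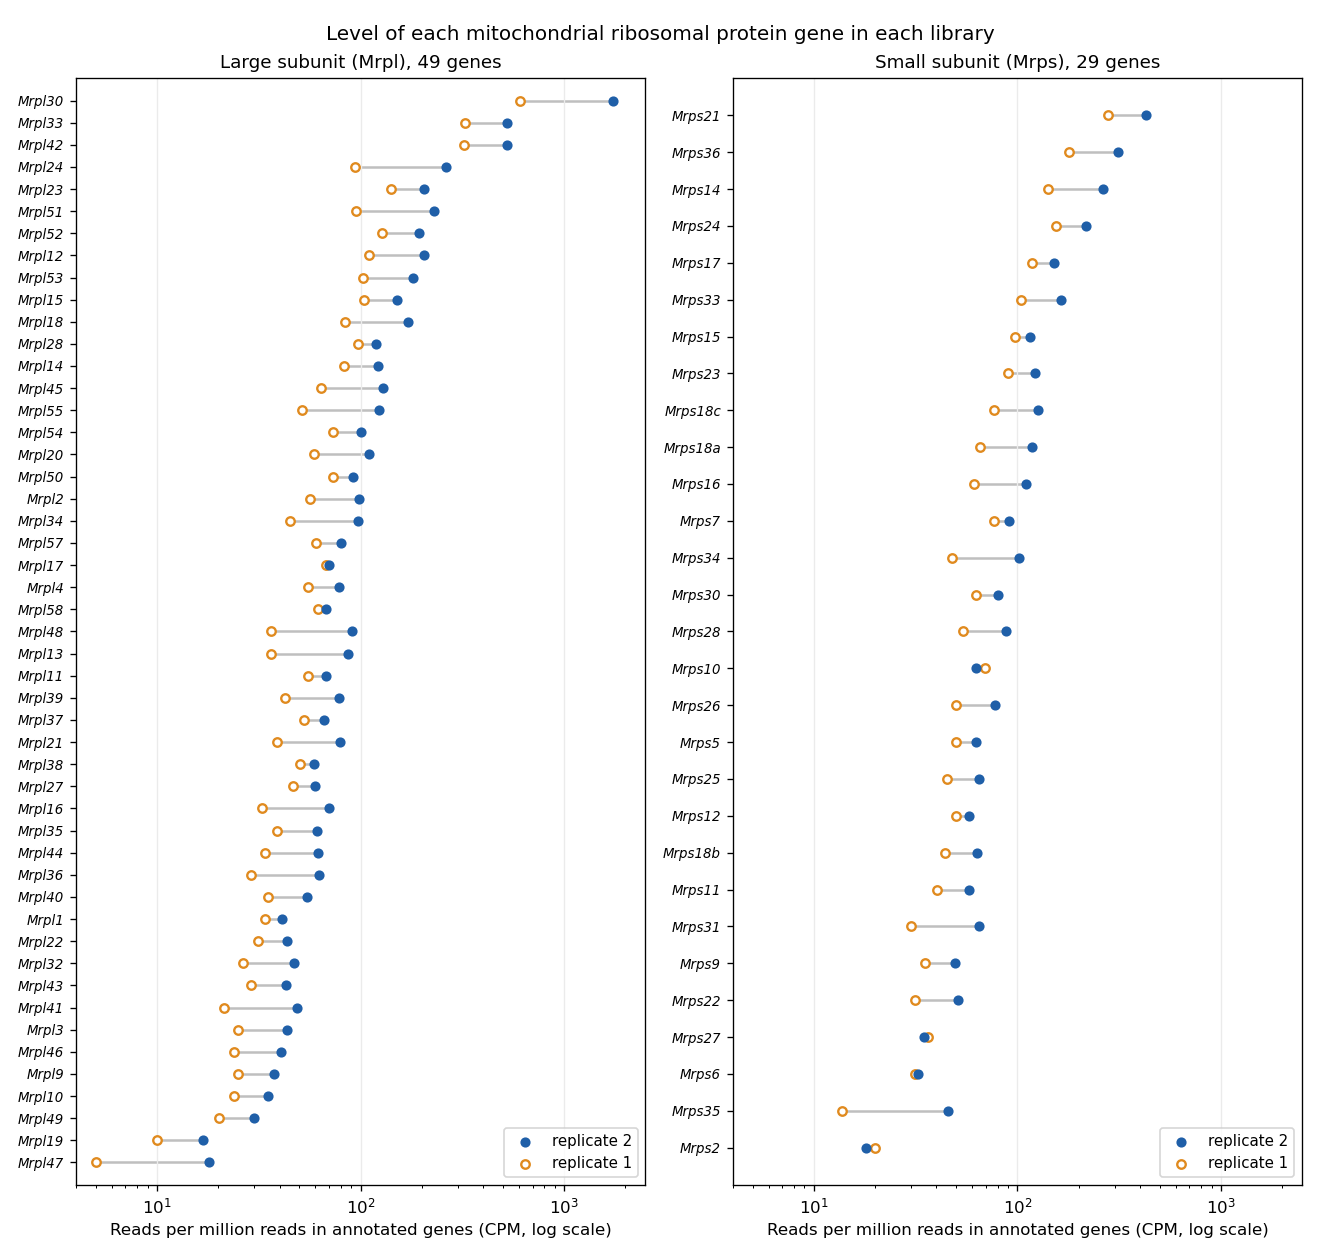
Level of every mitochondrial ribosomal protein gene in each library, in CPM on a log axis, with filled points for replicate 2, open points for replicate 1 and a grey line between them. Mrpl30 stands above the rest at 1739 and 605 CPM, most genes lie between 30 and 100 CPM, and the filled point is to the right in 75 of 78 genes.

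Other genes of mitochondrial translation had a lower median level than the ribosomal proteins. Of 62 listed genes (translation factors, assembly and rRNA-modifying factors, aminoacyl-tRNA synthetases and mitoribosome proteins that carry other names), 56 had at least 10 reads, and the median over all 62 was 17.5 CPM. The highest mean was that of Slirp, which with Lrpprc binds and protects mitochondrial messenger RNA, at 362 CPM in replicate 2 and 193 CPM in replicate 1. Gadd45gip1, a large-subunit protein outside the Mrp names, followed with 381 CPM in replicate 2 and 146 CPM in replicate 1, although 83.5% of its reads in replicate 2 and 76.7% in replicate 1 were in single-exon models. Chchd1 and Aurkaip1, both small-subunit proteins, had means of 128 and 99.7 CPM, and Malsu1, which keeps an immature large subunit from joining, one of 69.1 CPM. The GTP-binding small-subunit protein Dap3 had 32.8 ± 5.63 CPM (SD, n = 2), and the RNA-binding small-subunit protein Ptcd3 had 27.5 CPM in replicate 2 and 32.6 CPM in replicate 1. Over the 17 synthetases the median was 12.2 CPM and over the 24 assembly and rRNA genes 11.6 CPM.

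The 2 mitochondrial rRNAs, mt-Rnr1 of the small subunit and mt-Rnr2 of the large subunit, also appeared among the reads. Of these, mt-Rnr1 had 94.9 CPM in replicate 2 and 28.9 CPM in replicate 1, and mt-Rnr2 had 361 CPM in replicate 2 and 142 CPM in replicate 1. How far the library method captured rRNA is not stated in the sources used here, so these values are no measure of ribosome number.

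The members had short transcripts. The leading annotated transcript had a median of 1302 nt, 5 exons and 582 nt of coding sequence, against 2499 nt, 8 exons and 1137 nt for 7084 other tested protein-coding genes with a read in an annotated transcript. Among the members it ran from 418 nt (Mrpl52-201) to 7300 nt (Mrpl17-202), whose protein is itself short, with 528 nt of coding sequence.

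Most member reads fell in models with the introns of an annotated transcript. TALON, the program named by the deposited annotation, calls a model Known when its intron chain equals an annotated one, ISM when it holds a consecutive part of one, NIC or NNC when it joins annotated sites anew or uses a new site, and Genomic when it overlaps a gene without following its splicing. Known models held 67.6% of member reads in replicate 2 and 75.9% in replicate 1 (mean 71.7% ± 5.9, SD, n = 2), against 67.6% and 66.5% of the reads of all other annotated genes in the same order. The median member was higher, at 88.2% Known in replicate 2 and 90.9% in replicate 1, and 60 of 78 members were above 75% in both libraries. ISM models held 5.26% of member reads in replicate 2 and 5.07% in replicate 1, against 16.0% and 10.8% in other genes.

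In 3 genes, Mrpl30, Mrpl24 and Mrpl33, no annotated transcript had the lead and few reads were Known. Without them Known models held 86.3% of member reads in replicate 2 and 88.8% in replicate 1. Mrpl30 alone gave 77.5% of the members' Genomic reads in replicate 2 and 73.5% in replicate 1, and Mrpl33 gave 73.6% of their NNC reads in replicate 2 and 75.4% in replicate 1. Mrps22 was the only other member with Known models below 50% in both libraries, at 31.7% in replicate 2 and 32.0% in replicate 1.

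**Figure D2:**
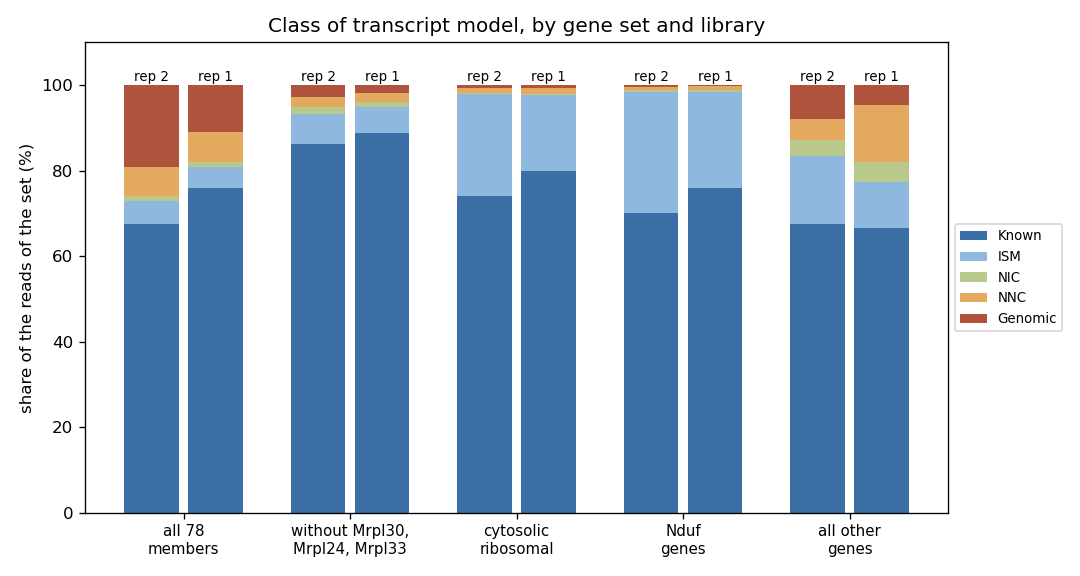
Share of reads in each class of transcript model, in percent of the reads of the gene set, with replicate 2 to the left of replicate 1 in each pair of stacked bars, for the members, the 83 cytosolic ribosomal protein genes with reads, the 37 Nduf genes and all other genes. All 78 members had 67.6% and 75.9% of reads in Known models, and without Mrpl30, Mrpl24 and Mrpl33 they had 86.3% and 88.8%.

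The high level of Mrpl30 came from a short single-exon model. Mrpl30 lies on the plus strand at chr1:37890477-37898535 (mm10), and a model at chr1:37898165-37898338, 174 nt long and inside its last exon, held 2433 of its 2787 reads in replicate 2 and 378 of 482 in replicate 1. The complete coding transcript Mrpl30-201, with 6 exons, had 300 reads in replicate 2 and 87 reads in replicate 1. Counted without ISM and Genomic models, Mrpl30 stood at 220 CPM in replicate 2 and 130 CPM in replicate 1. With Known models only, in reads and library totals, it ranked 6 among the members with a mean of 257 CPM. Mrpl42 (552 CPM), Mrps21 (512 CPM), Mrps36, Mrps14 and Mrps24 then stood above it. The 174-nt model ended 74 nt past the last base of the stop codon, and the 20 nt that follow in the annotated exon hold 2 A. Its last base is also the annotated last base of the coding transcript Mrpl30-207. The model's first base is likewise the annotated last base of another transcript, Mrpl30-206. What set these borders was not tested. The letters ATTAAA, a variant of the poly(A) signal AATAAA, start 24 nt before the end of the model. Either set of letters stands in the last 40 nt of the leading annotated transcript of 56 of the 78 members (71.8%), on the transcribed strand.

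Mrpl24 and Mrpl51 also had single-exon models inside the last exon, but with ends of other kinds. In Mrpl24, on the plus strand of chromosome 3, a Genomic model at chr3:87923210-87923316 held 358 of 422 reads in replicate 2 and 63 of 75 in replicate 1, while the leading annotated transcript, the 6-exon Mrpl24-202, had 38 reads in replicate 2 and 4 in replicate 1. All Known models of Mrpl24 together had 62 reads in replicate 2 and 9 in replicate 1. That model ran from the first base of the last exon to 30 nt before the end of the stop codon, and 9 of the next 20 nt are A. No annotated transcript of Mrpl24 ends there. In Mrpl51 a single-exon ISM model of 336 nt held 201 of 367 reads in replicate 2 and 36 of 76 in replicate 1, level in replicate 1 with the 36 reads of the 3-exon Mrpl51-201, which had 149 in replicate 2. It ended 139 nt past the stop codon, at the annotated last base of the noncoding Mrpl51-202, and 3 of the next 20 nt are A. Neither AATAAA nor ATTAAA stands in the last 40 nt of the Mrpl24 or the Mrpl51 model. The deposited annotation gives 1 start and 1 end per model, so the ends of single reads were not analysed here.

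**Figure D3:**
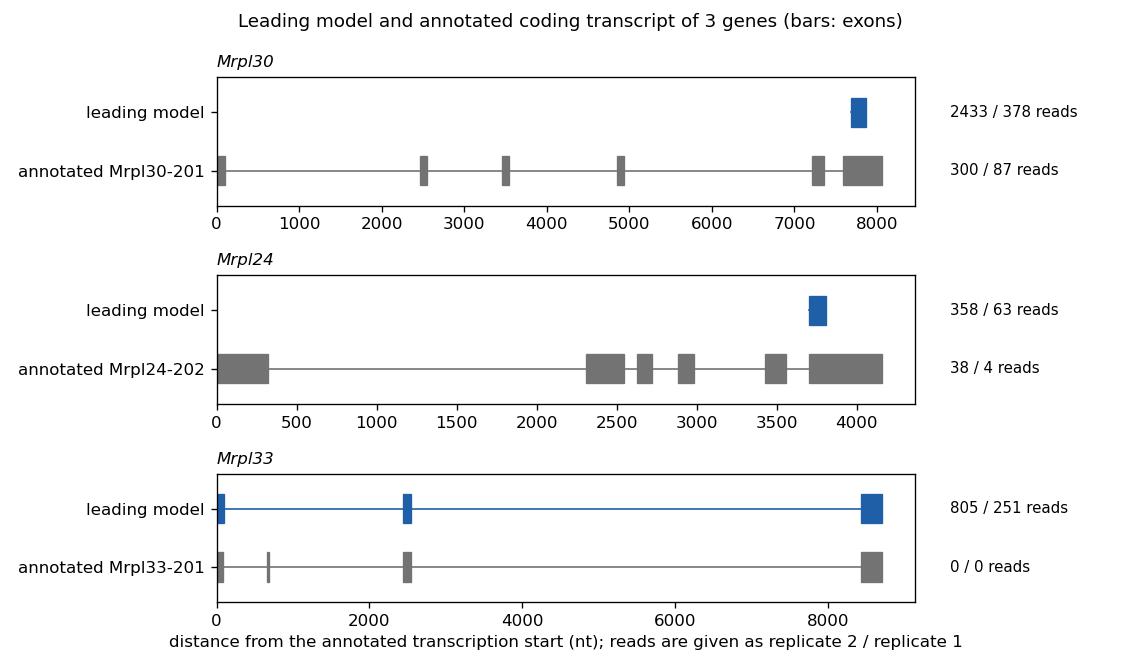
Exons of the leading model, above, and of the annotated coding transcript, below, for Mrpl30, Mrpl24 and Mrpl33, by distance in nt from the annotated transcription start, with reads in replicate 2 and replicate 1 at the right. In Mrpl30 and Mrpl24 the leading model is 1 exon within the last annotated exon, and in Mrpl33 it has 3 of the 4 exons and lacks the 19-nt one.

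Mrpl33 was read almost wholly as a form outside the annotation. The leading model, NNC with 3 exons (chr5:31613939-31622642 in replicate 2, plus strand, mm10), held 805 of 837 reads in replicate 2 (96.2%) and 251 of 260 in replicate 1 (96.5%). The annotated Mrpl33-201, which carries an extra 19-nt coding exon at chr5:31614603-31614621, had 0 reads in either library, which allows up to 1.87 CPM in replicate 2 and 3.76 CPM in replicate 1. Of the reads that include or skip that exon, 8 of 820 in replicate 2 and 0 of 252 in replicate 1 included it. In the model, exon 1 ran 8 nt past its annotated end, to chr5:31614030. Reads with that extended end numbered 807 in replicate 2 and 251 in replicate 1, against 6 in replicate 2 and 1 in replicate 1 with the annotated end at chr5:31614022. The 2 forms are shown because they differ there, written from the start codon in exon 1 into the next shared exon, with the 19-nt exon and the 8-nt extension in capitals.
annotated Mrpl33-201: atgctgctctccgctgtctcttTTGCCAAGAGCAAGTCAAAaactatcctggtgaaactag
leading NNC model: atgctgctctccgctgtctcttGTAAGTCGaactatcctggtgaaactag

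The annotated form keeps an open frame of 65 codons before its stop. Read on the genome letters of the model, the same start codon gives 42 codons, since the forms differ by 11 nt. The 8 letters of the extension begin at the annotated splice donor, and laid without gaps on the 19-nt exon they match it best at its positions 10 to 17, counted from its 5′ end, where 6 of 8 letters are equal. The models give only the genome positions to which reads were aligned. Whether the reads themselves carried the 19 nt was not tested.

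Mrps22, a small-subunit protein found only in mitochondria, was led by an incomplete 5-exon model of its 3′ part, with 51 of 82 reads in replicate 2 and 17 of 25 in replicate 1. The 8-exon Mrps22-201 had 26 reads in replicate 2 and 8 in replicate 1. Mrpl39 had a similar 3-exon incomplete model with 51 of 125 reads in replicate 2 and 11 of 34 in replicate 1, behind Mrpl39-201 with 62 and 20 reads in the same order.

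Which transcript led a gene did not differ between the libraries in any member with enough reads. Of 70 members with at least 20 reads in each library, all 70 had the same leading model in both, counting Mrpl51 and Mrps12, where it was tied in replicate 1. The same held for 2700 of 3134 other genes (86.2%). In 65 of the 70 the leading model was a Known coding transcript, and the exceptions were Mrpl24, Mrpl30, Mrpl33, Mrpl51 and Mrps22. The leading share was above 90% in both libraries for 18 members, among them Mrps14, Mrps34 and Mrpl52. Fisher's exact test of the leading share, two-sided with Benjamini-Hochberg adjustment over 3204 genes, called 0 of the 70 members (adjusted p under 0.05 with a shift of 10 percentage points or more), where 15.8% of all genes tested were called. At an unadjusted p under 0.05 there were 3 members, Mrpl30, Mrpl45 and Mrps11, against 26% of all genes. Mrpl30 passed the adjustment (adjusted p = 1.34e-05 by the same test) with a difference of 8.87 points, 87.3% in replicate 2 against 78.4% in replicate 1.

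In 6 of the 70 members no model reached 60% in either library, which were Mrpl39 and Mrpl51, described above, and Mrpl55, Mrps10, Mrps12 and Mrps17. Mrps12, the counterpart of bacterial S12 at the decoding site, was split between Mrps12-201, with 53 of 93 reads in replicate 2 and 20 of 40 in replicate 1, and Mrps12-204, with 33 in replicate 2 and 20 in replicate 1. The transcripts have 3 and 2 exons. Mrpl55, a large-subunit protein found only in mitochondria, was spread over Mrpl55-201 (46.2% in replicate 2 and 43.9% in replicate 1), Mrpl55-203 (19.3% in replicate 2 and 26.8% in replicate 1) and rarer forms. Mrps17 had Mrps17-201 at 51.4% in replicate 2 and 47.9% in replicate 1, followed by Mrps17-205 with 13.2% in replicate 2 and 12.8% in replicate 1.

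Mrps10 was divided by a pair of splice acceptors 3 nt apart. Mrps10-203 uses the acceptor that opens its exon at chr17:47372573 (plus strand, mm10) and Mrps10-204 the one at chr17:47372576. The upstream acceptor was in 51 of 95 reads in replicate 2 (53.7%, 95% interval 43.2% to 64.0%) and in 35 of 55 in replicate 1 (63.6%, 49.6% to 76.2%), and Fisher's exact test, two-sided and unadjusted, gave p = 0.304 between the libraries. The first 30 nt of the longer exon are shown with the 3 extra bases in capitals. They fall inside the coding sequence after 113 nt, and being 3 in number they leave the frame of what follows unchanged.
Mrps10-203: CAGtgccagtatgaagtgggtgccactgtc
Mrps10-204: tgccagtatgaagtgggtgccactgtc

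Few internal exons of the members were included in some reads and skipped in others. A read was informative if it held the exon with both annotated ends or skipped it whole, so other splice sites are not covered. There were 218 annotated internal exons in 61 genes with at least 20 informative reads in each library. Of these, 201 were included in more than 95% of informative reads in both libraries, 155 of them in every such read. The longer Mrps10 exon above counts as included in 96.2% in replicate 2 and 100% in replicate 1, because reads from the other acceptor were left out. Another 8 were included in less than 5%, and 7 exons in 5 genes lay between 5% and 95% in both libraries, which is 3.21% of the 218, against 2.84% of 17896 exons of other genes. Fisher's exact test with Benjamini-Hochberg adjustment over 18114 exons called 0 of the 218 between the libraries, and 0 had an unadjusted p under 0.05, against a background of 0.0497% of exons called and 0.591% at the unadjusted p. The largest difference was 15.2 points.

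A 94-nt coding exon of Mrpl13, a counterpart of bacterial L13, was included in 79.6% of informative reads in replicate 2 (86 included it and 22 skipped it) and in 90.9% in replicate 1 (20 included it and 2 skipped it). Its length is not a multiple of 3, and skipping it gives the annotated nonsense-mediated decay form Mrpl13-202, with 20 of 139 reads in replicate 2 and 1 of 29 in replicate 1. A 123-nt coding exon of Mrps27, a pentatricopeptide-repeat protein of the small subunit, was in 4 of 55 reads in replicate 2 (7.27%) and 3 of 28 in replicate 1 (10.7%), and its length keeps the frame. Mrpl55 had an 84-nt exon, partly coding, included by 113 of 139 reads in replicate 2 and 21 of 25 in replicate 1, and a 202-nt coding exon at 85.7% in replicate 2 and 91.2% in replicate 1. The other alternative exons were noncoding, an 81-nt exon of Mrpl30 at 91.0% in replicate 2 and 87.9% in replicate 1 and a pair of overlapping exons of Mrps17 with 80 nt and 227 nt. In Mrps18c, 1 of 3 mammalian counterparts of bacterial S18, a 58-nt coding exon was in 184 of 201 reads in replicate 2 (91.5%) and 58 of 61 in replicate 1 (95.1%). The skipped coding exons of Mrpl13 and Mrps18c, whose loss shifts the frame, read as follows (mm10, chr15:55548142-55548235 on the minus strand and chr5:100803053-100803110 on the plus strand), in capitals throughout.
Mrpl13 exon: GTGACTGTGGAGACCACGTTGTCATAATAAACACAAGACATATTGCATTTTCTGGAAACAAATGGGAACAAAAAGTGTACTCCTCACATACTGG
Mrps18c exon: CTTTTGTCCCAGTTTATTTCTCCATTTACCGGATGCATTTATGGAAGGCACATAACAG

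**Figure D4:**
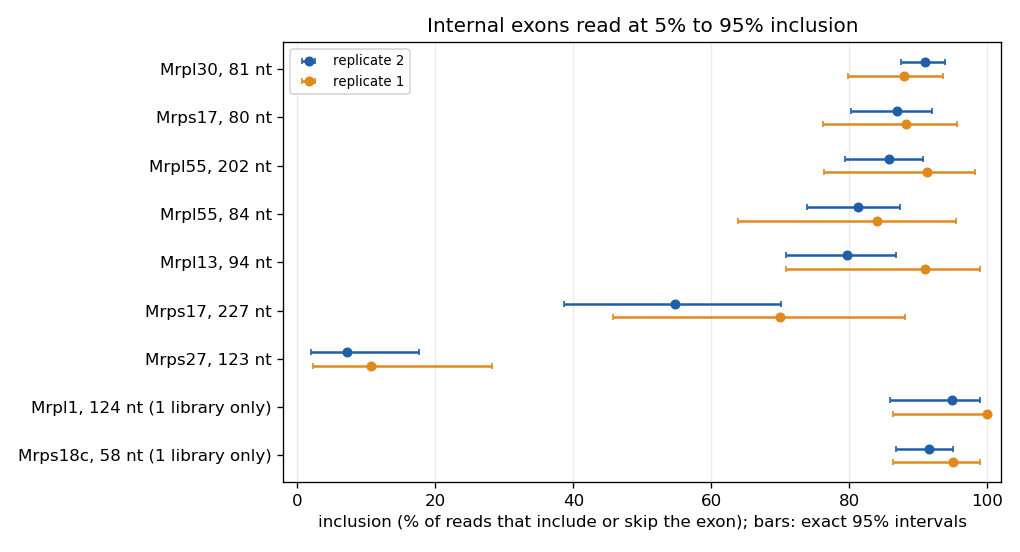
Inclusion of the 7 member exons read between 5% and 95% in both libraries, and of 2 that reach that range in 1 library, in percent of the reads that include or skip the exon. Points are the libraries and bars exact 95% binomial intervals. The bars of the libraries overlap for every exon, and the Mrps27 exon is the only one included in a minority of reads, at 7.27% in replicate 2 and 10.7% in replicate 1.

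Annotated transcripts labelled as nonsense-mediated decay, retained intron or processed transcript held 1.04% of member reads in replicate 2 and 1.19% in replicate 1 (mean 1.11% ± 0.103, SD, n = 2), against 1.68% and 0.941% of the reads of other genes in the same order. Summed over the libraries, the most such reads were in Mrps24, with 37 of 350 in replicate 2 and 15 of 123 in replicate 1, and in Mrpl57, with 17 of 129 in replicate 2 and 8 of 48 in replicate 1.

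The promoters of the members were rich in CpG and often held the same short motifs. RefSeq promoter windows (GRCm38.p6, 300 nt, from 250 before to 50 after a gene's start) were found for 69 of the 78 genes, 75 windows in all. Mrpl13, Mrpl15, Mrpl19, Mrpl38, Mrpl4, Mrpl54, Mrps28, Mrps34 and Mrps35 had none there. The median window had 21 CpG, against 14 in 20075 windows of other protein-coding genes. Short motifs of 3 factor families known to act on nuclear genes of mitochondria were searched on both strands. CCGGAAG, an ETS family core, stood in 26 of 75 member windows (34.7%), against 11.8% of windows of other protein-coding genes and 8.86% of all 32851 windows. TGCGCA, part of the NRF1 element and its own reverse complement, stood in 22 (29.3%), against 9.89% and 7.76%. ATGGCGG, part of the YY1 element, stood in 13 (17.3%), against 5.33% and 4.05%. At least 1 motif was in 47 of 75 member windows (62.7%) and in 23.4% of windows of other protein-coding genes. A match is a match of letters and shows no binding. All 3 motifs contain CG, and the windows compared were not matched for CpG. ATGGCGG opens with ATG, and the windows reach 50 nt past a gene's start. Whether matches there were start codons was not tested, so the ATGGCGG share may include start codons.

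All 3 motifs stood in the windows of 2 members, Mrpl22, a large-subunit protein lining the peptide tunnel, and Mrps18a, another counterpart of bacterial S18. Both windows are printed with the motifs in capitals, at chr11:58171414-58171713 and chr17:46110754-46111053, each on the plus strand of GRCm38.p6. In Mrpl22 the ETS core starts at position 198 of the window, the NRF1 part at 217 and the YY1 part at 273. In Mrps18a the NRF1 part starts at 209, the ETS core at 225 and the YY1 part at 265. In both windows the YY1 part lies past the gene's start. Read in frame from its ATG, neither window holds a stop codon before its end. Both YY1 matches may therefore be start codons, which was not checked against the coding sequences.
Mrpl22: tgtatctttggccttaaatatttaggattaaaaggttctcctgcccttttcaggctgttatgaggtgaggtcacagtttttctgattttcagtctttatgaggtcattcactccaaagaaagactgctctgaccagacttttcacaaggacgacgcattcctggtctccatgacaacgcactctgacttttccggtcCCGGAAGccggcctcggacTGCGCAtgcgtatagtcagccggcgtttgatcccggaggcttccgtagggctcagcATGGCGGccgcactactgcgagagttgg
Mrps18a: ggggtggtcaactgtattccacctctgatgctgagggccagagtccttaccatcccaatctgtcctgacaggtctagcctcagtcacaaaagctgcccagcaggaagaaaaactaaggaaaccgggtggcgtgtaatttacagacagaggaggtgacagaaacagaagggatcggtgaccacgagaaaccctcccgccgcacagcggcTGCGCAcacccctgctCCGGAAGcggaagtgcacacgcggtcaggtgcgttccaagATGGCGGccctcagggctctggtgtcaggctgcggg

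Members often started beside another gene on the opposite strand. The annotated start of a second protein-coding gene, transcribed the other way, lay within 1000 bp for 18 of 78 members (23.1%), against 6.71% of 21950 other protein-coding genes. All 78 members had reads, whereas the 21950 were not limited to genes with reads. Mrps12 stands 172 bp from Sars2, the mitochondrial seryl-tRNA synthetase, with 58.0 CPM against 16.9 CPM for Sars2 in replicate 2 and 50.2 CPM against 18.8 CPM in replicate 1. Mrpl32 stands 75 bp from Psma2, a proteasome subunit gene, with 46.8 CPM against 177 CPM for Psma2 in replicate 2 and 26.3 CPM against 103 CPM in replicate 1. Mrps27 stands 81 bp from Ptcd2, whose product binds mitochondrial RNA, with 35.0 CPM against 38.1 CPM in replicate 2 and 36.4 CPM against 26.3 CPM in replicate 1. In 14 of the 18 pairs the member had the higher CPM in both libraries, and in 3 pairs, Mrpl32 with Psma2, Mrpl41 with Pnpla7 and Mrpl49 with Fau, the neighbour did. Neighbours needed no reads, and Lrrc46 and Ska3 had 0 in both libraries. The same count was not made for pairs of other genes.

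The libraries differed in the level of the members, nearly all in the same direction. The ratio of replicate 2 to replicate 1 was above 1 in 75 of 78 members, against 51.5% of the 8096 genes tested, and the exceptions were Mrps10, Mrps27 and Mrps2, at 0.905, 0.961 and 0.902. The median log2 ratio was 0.63 over the members and 0.06 over all genes tested. Most genes of complex I and of the cytosolic ribosome also had a ratio above 1, as given below. Fisher's exact test, two-sided with Benjamini-Hochberg adjustment over the 8096 genes, called 17 of 78 members (adjusted p below 0.05 and a ratio of 2-fold or more), all 17 higher in replicate 2. Over all genes tested 11.3% were called in either direction, 5.78% as higher in replicate 2 and 5.47% as lower. Since there is 1 animal on each side, the test speaks of these 2 libraries only, and in bulk tissue more cells of a kind and more RNA per cell cannot be told apart.

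By gene name, 14 of 49 Mrpl genes were called and 3 of 29 Mrps genes. Mrpl30 was called (ratio 2.88, 95% interval 2.61 to 3.18, adjusted p = 1.97e-125 by Fisher's exact test), but not when ISM and Genomic models were left out. It then had 353 reads in replicate 2 against 104 in replicate 1. The log2 ratio was 0.91, over library totals that also left out those models. Mrpl24 had a ratio of 2.80 (2.19 to 3.63) and Mrpl51 one of 2.40 (1.87 to 3.12, adjusted p of 2.32e-18 and 1.21e-12 by Fisher's exact test), both with most reads in single-exon models in replicate 2. The largest ratios were in low genes, Mrpl47 at 3.61 (1.27 to 14.1, on 29 and 4 reads) and Mrps35, a small-subunit protein found only in mitochondria, at 3.30 (1.74 to 6.90, on 73 reads in replicate 2 and 11 in replicate 1).

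The called members held counterparts of bacterial proteins (Mrpl13, Mrpl16, Mrpl18, Mrpl21, Mrpl24, Mrpl30, Mrpl34, Mrpl36 and Mrpl47) and proteins found only in mitochondria (Mrpl41, Mrpl45, Mrpl48, Mrpl51, Mrpl55, Mrps31, Mrps34 and Mrps35). Among these Mrpl45 binds the ribosome to the inner membrane. Mrpl48 had a ratio of 2.50, Mrpl55 one of 2.39 and Mrpl13 one of 2.38, and the other 9 lay between 2.02 and 2.28. The lowest called ratios were 2.02 in Mrpl45, 2.03 in Mrpl18 and 2.04 in Mrpl21, and just outside were Mrpl20 and Mrps14 at 1.86 and Mrpl12 at 1.85, with adjusted p of 8.73e-04, 1.73e-08 and 1.22e-06 by the same Fisher's exact test. Without the fold threshold 38 of 78 members passed, all higher in replicate 2, against 20.3% of all genes in either direction and 12% as higher. The count was 10 with Known models only, where 4.45% of all genes were called as higher in replicate 2, and 22 without ISM and Genomic models, where 6.9% were. In both settings the library totals were also limited to the models kept. The count of called members was 8, against 4.3% of all genes, when Atp2a1, the fast-fibre calcium pump at 30171 CPM in replicate 2 and 110003 CPM in replicate 1, was left out of the library totals. It stayed at 17 with edgeR's TMM factors (6.37% of all genes higher), DESeq2's size factors (5.88%) and a minimum of 20 reads (7.53%), and was 16 with no minimum (2.68%), where Mrpl47 lost the call. The factors of edgeR and DESeq2 changed only the fold, and raised it toward replicate 2, so they could not remove a call.

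**Figure D5:**
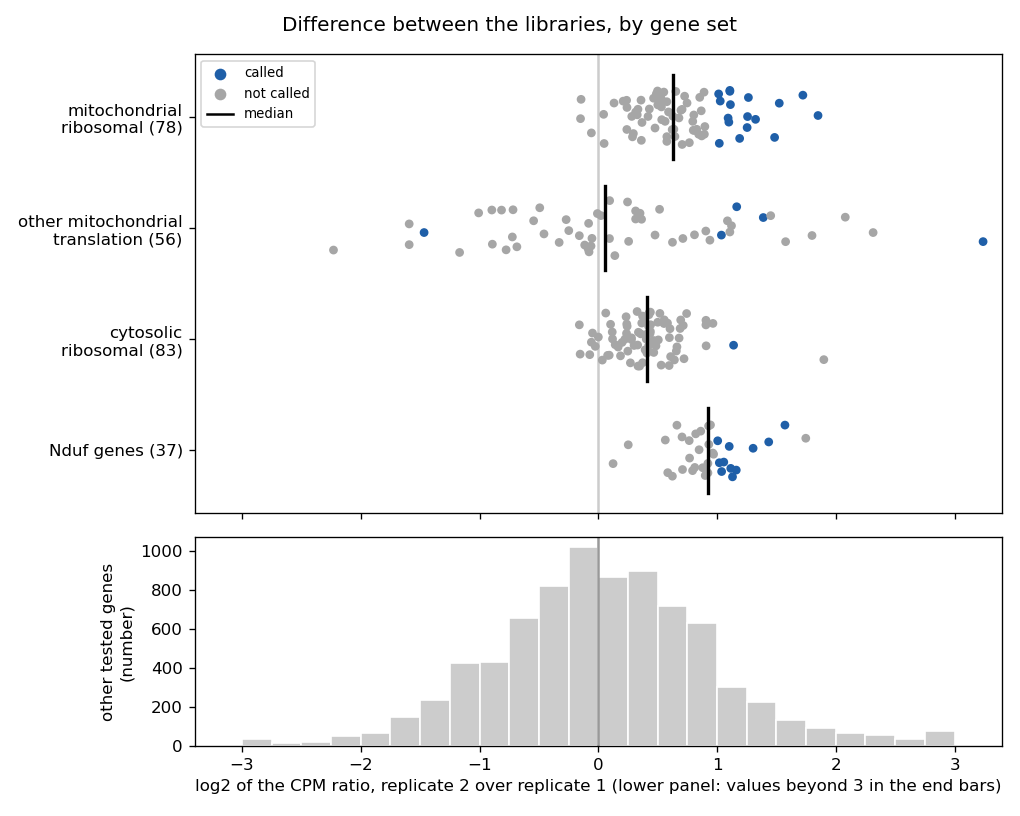
Log2 of the CPM ratio of replicate 2 over replicate 1, with 1 point per tested gene in the upper panel (blue where called, grey where not, the median of each set as a black line) and the number of other tested genes in the lower panel. The members lie around a median of 0.63 and the other mitochondrial translation genes around one of 0.06.

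Other genes of mitochondria and ribosomes are set beside them. Of 37 genes named Ndufa, Ndufb, Ndufc, Ndufs or Ndufv and a number, most of which encode subunits of respiratory complex I, 11 were called, all higher in replicate 2. Among the 11 is Ndufa4, whose product is now known as a subunit of cytochrome c oxidase. The 37 had a median log2 ratio of 0.92. A ratio above 1 was not particular to the members. It held in all 37 of these genes, in 77 of 83 cytosolic ribosomal protein genes and in 29 of 56 other mitochondrial translation genes. Of 83 cytosolic ribosomal protein genes tested 1 was called, Rpl29, with a median of 0.41. Among the 56 tested genes of mitochondrial translation 5 were called. Aurkaip1 (ratio 2.24), Gadd45gip1 (2.62), Fars2 (2.05) and Mtrf1 (9.45, on 19 reads in replicate 2 and 1 in replicate 1) were higher in replicate 2, and Iars2 (0.362) was lower, with a median log2 ratio of 0.06 over the 56. Mtrf1 is a peptide release factor, and Fars2 and Iars2 are the mitochondrial phenylalanyl- and isoleucyl-tRNA synthetases. The rRNAs mt-Rnr1 and mt-Rnr2 were also called, at 3.29-fold and 2.55-fold higher in replicate 2.

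Several measures moved with this difference. The slow-fibre markers, given above, were higher in replicate 2, where all 4 were detected, while 2 of 4 were in replicate 1. Blood markers (Hba-a1 and Hbb-bs) summed to 455 CPM in replicate 2 and 2061 CPM in replicate 1, and adipocyte markers (Adipoq, Cfd and Plin1) to 68.7 CPM in replicate 2 and 380 CPM in replicate 1. Cdh5 and Egfl7, markers of endothelium, summed to 51.8 CPM in replicate 2 and 45.2 CPM in replicate 1, but went opposite ways. Cdh5 had 3.74 CPM in replicate 2 and 7.53 CPM in replicate 1, on 6 reads in each. Egfl7 had 48.1 CPM in replicate 2 and 37.6 CPM in replicate 1. Mbp, a gene of myelin, had 16.9 CPM in replicate 2 and 96.6 CPM in replicate 1. Fibroblast collagens (Col1a1 and Col3a1) summed to 356 CPM in replicate 2 and 645 CPM in replicate 1. Transcript length moved with the ratio too. Other genes had a median log2 ratio of 0.58 up to 1000 nt, 0.31 from there to 2000 nt, -0.11 to 3000 nt and -0.38 beyond, whereas members in the same classes had 0.70, 0.58, 0.68 and 0.64. These length classes were chosen after the values were seen. The part of fibre type, tissue make-up, read length and depth, which was 2.01 times larger in replicate 2, in the members' difference was not tested.

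Copies of member genes elsewhere in the genome also took reads. Of Mrpl23-ps1, a processed pseudogene, 92.8% of the 25-nt words occur in the transcripts of Mrpl23, and it had 181 reads in replicate 2 and 68 in replicate 1, beside 329 and 113 reads of Mrpl23 in the same order. Gm5776, with 91.6% of its words in Mrps33, took 46 reads in replicate 2 and 9 in replicate 1. Gm14017, with 70.2% in Mrpl51, took 33 in replicate 2 and 4 in replicate 1. The levels of Mrpl23, Mrps33 and Mrpl51 are uncertain by that much, since reads of near-identical copies can be assigned to either. Antisense models over members held 150 reads in replicate 2 and 23 in replicate 1, the most over Mrps6, with 30 and 6, and Mrpl51, with 30 and 2 in the same order.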

How the data were processed

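For each library the authors deposited a table of counts of reads by transcript model, with a matching annotation. The README files name mm10, GENCODE M21 and filtered alignments as their basis, and the annotation carries TALON identifiers. Aligner, read correction, filters and strand handling: not given in the sources used here. Counts were summed per gene and scaled to reads in annotated mouse genes, without spike-ins, antisense and intergenic loci. Models were matched by annotated transcript or intron chain, with unannotated single-exon models pooled per gene and class. Genes needed 10 reads summed, and transcript shares and exons 20 reads per library. Tests were checked on simulated reads with counting error only, without any spread between animals. Python 3.11.15, scipy 1.17.1, pandas 2.3.3, edgeR 4.0.16 and DESeq2 1.42.0 (scaling of the fold only) were used. Every member is described by counts and ranges. Named are the 10 highest, the 5 lowest, those called, and those with an alternative exon, a noncoding or unannotated leading model, or a leading share under 60%, and, of the other translation genes, the 5 highest and those called. Others are named as examples, after their values were seen. Members, lists and tests were chosen with earlier results of these data known. Nothing shows that the animals were reared apart, so p-values measure only the difference between these 2 libraries. One marker gene is not reported here.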

Additional observations from a re-analysis of the deposited data

How the results depend on the processing

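All 17 calls among the members stayed under edgeR's TMM factors, DESeq2's size factors and a minimum of 20 reads. These settings could hardly remove a call. Both sets of factors left the adjusted p as it was and raised the ratios of replicate 2 over replicate 1. All 17 genes also met the minimum of 20 reads. With Known models only 10 members were called, and Mrpl16, Mrpl18, Mrpl21, Mrpl30, Mrpl47, Mrpl51 and Mrps31 lost the call. With Atp2a1 left out of the totals 8 were called, without a fold threshold 38, without ISM and Genomic models 22, and without a minimum of reads 16. Among the other translation genes 8 in place of 5 were called without ISM and Genomic models, and 3 without a minimum of reads. None of the 17 and 5 called genes changed direction under these alternatives. The median log2 ratio of the 56 other translation genes was 0.06, and -0.07 without Atp2a1, and 73 to 77 members had a ratio above 1. Per kilobase 6 of the 10 highest members remained, and 7 with Mrpl33 taken by its leading model. The share of decay and retained intron transcripts was 0.964% in models with at least 2 reads. With at least 50 reads per library 30 of 30 members shared the leading transcript, and between 10% and 90% inclusion there were 3 alternative exons. Leaving out either replicate moved the member share between 0.592% and 1.02%, their median level between 52.1 and 78.6 CPM, the Known share between 67.6% and 75.9%, and the decay share between 1.04% and 1.19%, and kept 8 to 10 of the 10 highest. No paired analysis was possible because the libraries form 1 group. Depth limits the low members most: Mrpl47 rests on 4 reads in replicate 1, and 8 members had too few reads for a comparison of transcripts.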
